A study of Mus musculus with 8 samples.

Results

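The enzymes of glycolysis and of the pentose phosphate pathway were followed as transcripts in epididymal white adipose tissue, the fat pad beside the epididymis. The set was a fixed list of 35 mouse symbols: 2 glucose transporters, the enzymes from hexokinase to pyruvate kinase, the enzymes that make and break down fructose-2,6-bisphosphate, a fructose bisphosphatase, and the enzymes of the pentose phosphate pathway. The rule names symbols only and uses no measured value, but the members were chosen with earlier results of these data known. The symbols matched 36 of 55487 gene identifiers, because the name Aldoa stands for 2 identifiers. Tissue came from 8 male C57BL/6 mice made obese on a high-fat diet (HFD). The 4 WT mice, numbered 2, 3, 4 and 5, carried Slc16a1 flox/flox. The 4 AKO mice, numbered 3, 8, 9 and 11, carried the same floxed alleles with AP2-cre, and their genotype label reads Slc16a1 -/-. AP2-cre expresses Cre recombinase from the promoter of the fatty acid binding protein gene Fabp4 (aP2), so the presence of Cre and the intended deletion go together. Diet, sex, strain and the floxed alleles were shared by both groups, and the labels give no ages.

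Slc16a1 encodes MCT1, a membrane carrier of lactate and pyruvate, the end products of glycolysis. Glycolysis splits glucose into pyruvate. Hexokinase traps glucose in the cell, phosphofructokinase commits it to the pathway, and aldolase to enolase and pyruvate kinase carry the triose phosphates to pyruvate. In fat cells the pathway also supplies glycerol phosphate for triglyceride. The oxidative branch of the pentose phosphate pathway makes NADPH, which fat cells use for fatty acid synthesis and macrophages for the oxidative burst, and its second branch exchanges sugars with glycolysis. Most steps can be run by several isozymes encoded by different genes.

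Values are TPM, transcript abundance scaled by transcript length to a fixed library total, so that they can be compared between genes. TPM keeps no read depth, so no counting error can be given, and errors are SD over 4 mice. The total of the targeted gene Slc16a1 was 23.4, 28.5, 15.7 and 17.6 TPM in WT mice 2 to 5 and 22.4, 21.5, 27.1 and 25.0 in AKO mice 3, 8, 9 and 11. No AKO library lay below the WT range, so the gene total does not check the labels. Of its 2 transcript rows, row 1 had 10.8 to 17.7 TPM in WT mice and 4.51 to 8.80 in AKO mice, with no overlap. Row 2 was listed at 0 in WT mice 4 and 5, had 12.5 and 14.4 TPM in WT mice 2 and 3, and ran from 13.6 to 22.5 in AKO mice. Which row holds the floxed part of the gene was not given. The 10 adipocyte markers (Adipoq, Plin1 and others) reached 1 TPM in every mouse. Their summed level was 11243 to 21100 TPM in WT and 10938 to 15899 in AKO, and 0 of 10 had a higher mean in AKO. The 13 macrophage markers summed to 2343 to 5408 in WT and 3737 to 6566 in AKO, and 12 of 13 had a higher mean in AKO. WT mouse 4 was the lowest of the 8 mice for 11 of these 13. AKO mouse 11 held 1832 TPM of 15 male germ cell genes, a list made after seeing the data, against 62.2 to 125 in the other 7 mice. The 4 B cell markers were low but did not overlap, with sums of 3.75 to 6.65 TPM in WT and 6.74 to 10.1 in AKO. Every AKO library had more rows above 0 (66578 to 70720 of 152298) than every WT library (63143 to 66466). The part of these differences in the results was not tested. In a whole fat pad, fewer cells of a type and less RNA per cell cannot be told apart.

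The whole set held 0.701% to 0.914% of all TPM, with group ranges that overlapped. The summed level was 8083 ± 1085 TPM (SD, n = 4) in WT and 7804 ± 530 in AKO. The 28 glycolytic identifiers made up 6361 ± 1050 TPM in WT and 6168 ± 468 in AKO, and the 8 pentose phosphate genes 1721 ± 47.1 and 1636 ± 76.7. Levels within the pathway differed far more than levels between mice. Aldoa was the most abundant member, with a mean of 1952 TPM over the 8 mice, followed by Gapdh (1515), Tpi1 (629) and Eno1 (503). The 2 glucose transporters of the list lay near the other end, Slc2a1 at 9.50 and Slc2a3 at 3.26 TPM. Of the 32 members with at least 1 TPM in at least 4 mice, 24 had a coefficient of variation under 20% over all 8 mice. The same share over all genes was not computed, so this count does not set the members apart from other genes. The plot of levels by mouse shows the ladder of levels.

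**Figure D1:**
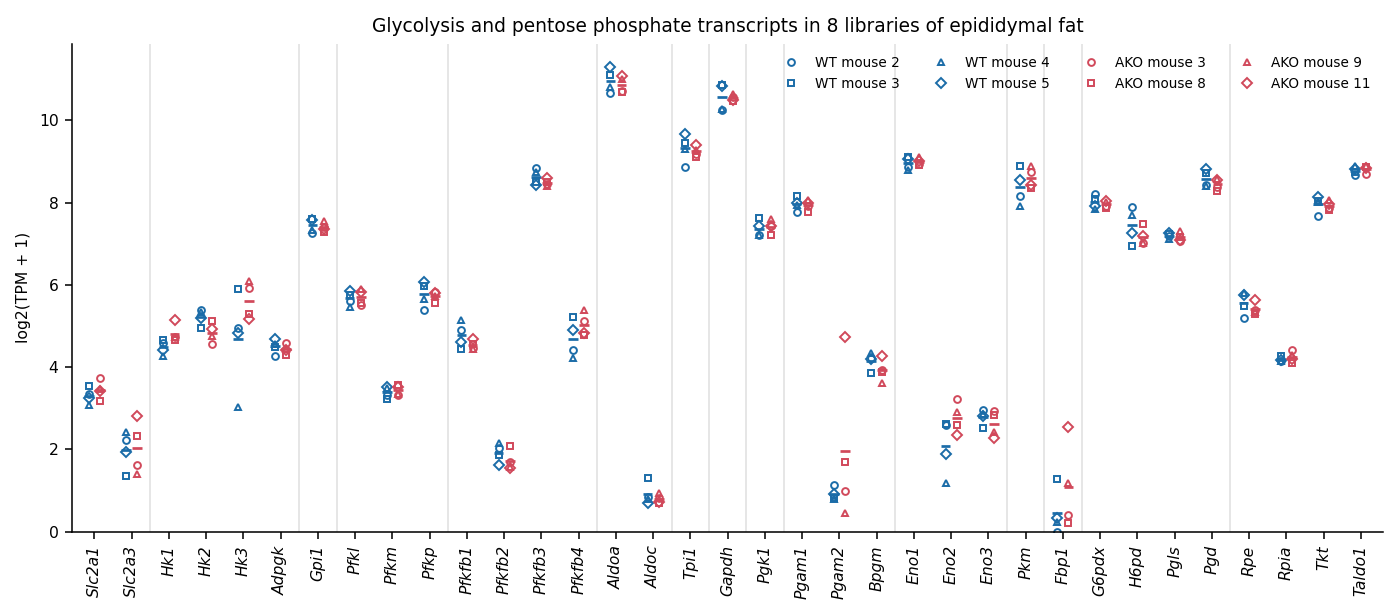
Level of each of the 35 symbols in each mouse, as log2(TPM + 1), with members in pathway order from glucose entry on the left to the pentose phosphate enzymes on the right. Blue symbols are WT mice, red symbols AKO mice, short bars are group means, and grey lines part the steps. Aldoa and Gapdh lie highest, while Hk3, Eno2, Pgam2 and Fbp1 show the widest scatter between mice.

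The most abundant class I glucose transporter transcript lay outside the list. Slc2a4, which encodes the insulin-regulated transporter GLUT4, held 84.9% ± 5.79 of the summed TPM of Slc2a1, Slc2a3 and Slc2a4 in WT and 79.4% ± 5.26 in AKO, and led in 8 of 8 mice. Slc2a1, the widely expressed GLUT1, had 8.94 ± 1.35 TPM in WT mice and 10.1 ± 1.75 in AKO mice. Slc2a3, the high-affinity GLUT3, was the lowest of the 3. It had 3.69, 1.54, 4.37 and 2.80 TPM in WT mice 2 to 5, and 2.10, 3.98, 1.63 and 5.97 in AKO mice 3, 8, 9 and 11. WT mouse 3 and AKO mouse 9 were low and AKO mouse 11 was high, and the groups overlapped throughout.

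Hexokinase was the step at which mice differed most in the isozyme they used. Hk2, the insulin-regulated isozyme of muscle and fat, had 41.1, 30.0, 39.7 and 35.8 TPM in WT mice 2 to 5 and 22.6, 33.8, 26.0 and 29.5 in AKO mice 3, 8, 9 and 11. Hk3, an isozyme best known from myeloid cells, had 29.8, 58.9, 7.17 and 27.7 TPM in WT and 59.3, 38.1, 67.0 and 34.9 in AKO, in the same order. WT mouse 4 was far below the others for Hk3, and the highest mouse had 9.34 times its level. Hk1, the widely expressed isozyme, had 22.9, 24.2, 18.4 and 20.2 TPM in WT and 25.5, 24.4, 25.4 and 34.1 in AKO. AKO mouse 11 was the highest for Hk1, and the other 3 AKO mice lay just above WT mouse 3. Hkdc1, another hexokinase gene, held at most 0.373% of the TPM summed over these 4 genes.

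As a share of that sum, Hk2 held 43.8%, 26.5%, 60.8% and 42.7% in WT mice 2 to 5 and 21.01%, 34.9%, 21.96% and 29.9% in AKO mice 3, 8, 9 and 11. Hk3 held 31.8%, 52.0%, 10.98% and 33.1% in WT and 55.2%, 39.4%, 56.5% and 35.4% in AKO. Hk2 led in 3 mice, all WT, and Hk3 in 5, namely WT mouse 3 and the 4 AKO mice. The ranges of both shares overlapped through WT mouse 3 alone, and without it the groups were apart for Hk2, Hk3 and Pfkfb1, 3 of the 26 isozyme shares computed over 9 families. With all 8 mice 0 of 26 shares were apart. Shares within a family sum to 100, so they were not tested. Adpgk, an ADP-dependent enzyme that phosphorylates glucose and stands outside this sum, had 21.8 ± 2.71 TPM in WT mice and 20.7 ± 1.77 in AKO mice.

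The bases before the annotated starts of Hk2 and Hk3 are shown because these isozymes changed places as the leading hexokinase. They were read from RefSeq promoter windows of GRCm38.p6, at chr6:82774455-82774704 and chr13:55021386-55021635, both on the minus strand, and each run ends at the base before the start. Capitals mark ACGTG, the core of the hypoxia response element, or GAGGAA, a core bound by the myeloid factor PU.1, searched on both strands. Both are written here on the opposite strand, as CACGT and TTCCTC.
Hk2: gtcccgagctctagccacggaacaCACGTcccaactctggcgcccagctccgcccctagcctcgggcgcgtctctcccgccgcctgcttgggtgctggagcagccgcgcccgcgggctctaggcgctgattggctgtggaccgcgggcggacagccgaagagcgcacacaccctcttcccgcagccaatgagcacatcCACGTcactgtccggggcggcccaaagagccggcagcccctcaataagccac
Hk3: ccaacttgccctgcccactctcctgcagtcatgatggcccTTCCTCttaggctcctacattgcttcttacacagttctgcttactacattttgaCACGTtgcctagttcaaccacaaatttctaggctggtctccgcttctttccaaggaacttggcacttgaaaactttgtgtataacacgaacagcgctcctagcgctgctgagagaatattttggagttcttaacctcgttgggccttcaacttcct
Over the whole window of 300 bases, 250 before and 50 after the start, Hk2 held ACGTG at -226 and -52 from the start and no GAGGAA. Hk3 held ACGTG at -156 and GAGGAA at -210. ACGTG occurred in 19.6% of all 32851 windows and GAGGAA in 28.3%. The 34 members with a window had 51 windows, of which 19 (37.3%) held ACGTG and 16 (31.4%) held GAGGAA. Windows of 1 gene can overlap and so share letters. These matches describe letters only.

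**Figure D2:**
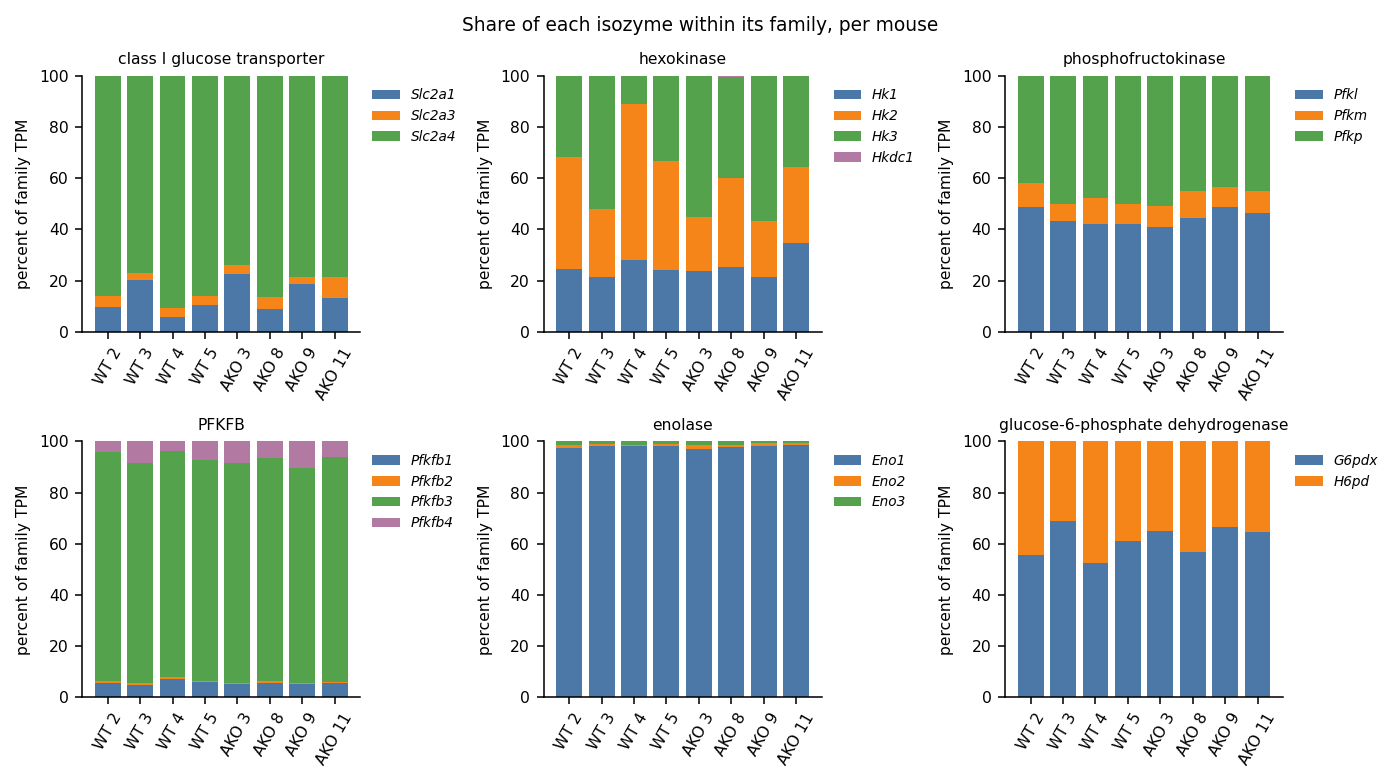
Percent of the summed TPM of 6 enzyme families held by each isozyme, 1 stacked bar per mouse from 0 to 100, WT mice on the left and AKO mice on the right of each panel. The hexokinase panel varies most, with an Hk3 share from 10.98% in WT mouse 4 to 56.5% in AKO mouse 9, while Pfkfb3 and Eno1 fill most of their panels in every mouse.

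Gpi1, the isomerase that forms fructose-6-phosphate, had 174 ± 20.7 TPM in WT mice and 169 ± 13.6 in AKO mice. Phosphofructokinase was shared between the liver-type Pfkl and the platelet-type Pfkp. Pfkl had 50.2 ± 5.67 and 51.2 ± 6.97 TPM in WT and AKO, and Pfkp 54.6 ± 11.6 and 52.1 ± 4.39. Pfkp led in 5 mice and Pfkl in 3. The muscle-type Pfkm held 6.79% to 10.6% of the family.

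The PFKFB enzymes set the level of fructose-2,6-bisphosphate, the main activator of phosphofructokinase. Pfkfb3, the form with the strongest kinase activity, led in 8 of 8 mice with 87.6% ± 1.81 of the family in WT and 86.3% ± 1.63 in AKO. Its level of 398 ± 53.1 TPM in WT and 358 ± 20.3 in AKO was above that of all 3 phosphofructokinase genes together in every mouse. Pfkfb4 had 20.4, 36.3, 17.8 and 29.0 TPM in WT mice 2 to 5 and 33.9, 26.6, 41.0 and 27.3 in AKO mice 3, 8, 9 and 11. Its 2 highest levels were in AKO mouse 9 and WT mouse 3, mice with high Hk3. Pfkfb1, the form of liver and muscle, had 29.1, 20.8, 34.3 and 23.6 TPM in WT and 20.9, 22.5, 20.9 and 24.6 in AKO. It was highest in WT mouse 4, where Pfkfb4 was lowest, and the groups overlapped for both. Pfkfb2 stayed between 1.91 and 3.45 TPM.

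From aldolase to enolase 1 isozyme carried each step. Aldoa had 2026 ± 407 TPM in WT mice and 1878 ± 259 in AKO mice and held 99.93% or more of the sum of Aldoa and Aldoc. Its second identifier had 0.10 to 0.55 TPM, and the brain form Aldoc 0.62 to 1.46. Tpi1, which interconverts the triose phosphates, had 650 ± 144 and 608 ± 54.9, and Gapdh, which oxidises glyceraldehyde phosphate, 1537 ± 359 and 1493 ± 77.1. Pgk1, the first ATP-forming enzyme, had 166 ± 24.2 TPM in WT mice and 171 ± 18.9 in AKO mice, and the mutase Pgam1 250 ± 27.1 and 244 ± 19.3. Pgam1 held 99.0% to 99.9% of the mutases in 7 mice and 90.7% in AKO mouse 11, where the muscle and testis form Pgam2 was high.

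Eno1 held 97.0% to 98.5% of enolase, with 496 ± 52.8 TPM in WT and 510 ± 31.6 in AKO. The neuronal form Eno2 had 5.06, 5.10, 1.28 and 2.72 TPM in WT mice 2 to 5 and 8.30, 5.01, 6.55 and 4.10 in AKO mice 3, 8, 9 and 11. WT mouse 4 was again the lowest mouse. The muscle form Eno3 lay between 3.87 and 6.78 TPM. Pkm, the pyruvate kinase gene of most tissues, had 285, 471, 242 and 371 TPM in WT and 426, 325, 477 and 345 in AKO. WT mouse 4 was the lowest and AKO mouse 9 the highest, and the groups overlapped. Bpgm, which makes the 2,3-bisphosphoglycerate of red blood cells, had 17.7, 13.6, 19.1 and 17.5 TPM in WT and 14.2, 13.8, 11.3 and 18.2 in AKO, with AKO mouse 9 the lowest. Fbp1, the gluconeogenic bisphosphatase of liver and kidney, was listed at 0 in WT mouse 2 and was at 1.45, 0.17 and 0.26 TPM in WT mice 3, 4 and 5. It was at 0.33, 0.15, 1.28 and 4.83 in AKO mice 3, 8, 9 and 11.

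Among the pentose phosphate genes, Taldo1 and Pgls varied least between mice and H6pd most. In the oxidative branch, Pgd, which makes the second NADPH, was the most abundant, with 386 ± 55.4 TPM in WT and 349 ± 32.0 in AKO. G6pdx, the cytosolic enzyme of the first step, had 259 ± 30.4 and 247 ± 14.4, and the lactonase gene Pgls 145 ± 6.76 and 142 ± 10.4. H6pd, the form of the endoplasmic reticulum, stood at 237, 122, 206 and 153 TPM in WT mice 2 to 5 and 128, 176, 129 and 144 in AKO mice 3, 8, 9 and 11. It was lowest in WT mouse 3 and highest in WT mouse 2, so that its share of the pair ran from 31.1% to 47.4%. G6pdx led in 8 of 8 mice. In the second branch, Taldo1 (transaldolase) had 437 ± 28.7 TPM in WT mice and 452 ± 27.4 in AKO mice, and its highest mouse had 1.16 times the level of its lowest. Tkt (transketolase) had 251 ± 32.7 and 243 ± 17.5. The isomerase gene Rpia and the epimerase gene Rpe were lower, at 17.2 ± 0.79 and 18.1 ± 1.83 TPM and at 46.6 ± 8.97 and 41.7 ± 4.58.

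The comparison of AKO with WT asked which of these transcripts differed with the intended loss of the lactate carrier. Of the 32 members tested, 0 passed a false discovery rate (FDR) of 0.05 with limma on log2(TPM + 1), fitted over all 14172 genes with that level, of which 0.0282% passed. The smallest FDR among the members was 0.831. At an unadjusted p below 0.05 there were 2 members, Hk1 and Hk2, or 6.25% of those tested, against 4.75% of all genes. Log2 differences, AKO minus WT, were above 0 for 13 members (40.6%, with 53.8% of all genes) and below 0 for 19, with a median of -0.04. Over all genes the median was 0.02. Without WT mouse 4, 0 members passed the FDR (0.0353% of all genes) and 0 had an unadjusted p below 0.05 (3.34%). Without AKO mouse 11, 0 members passed the FDR (0.0141%) and 2 had an unadjusted p below 0.05 (6.78%), in this case Hk2 and Bpgm but not Hk1. A miss of the threshold with 4 mice a group does not show that levels were equal.

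Hk1 and Hk2 were the members with an unadjusted p below 0.05, and Hk3 and Eno2 had the largest differences. Hk2 averaged 36.6 ± 4.96 TPM in WT mice and 27.9 ± 4.79 in AKO mice, a log2 difference of -0.38 (SE 0.14, limma FDR = 0.831). Only WT mouse 3 and AKO mouse 8 made the groups overlap. With the macrophage marker level as a covariate the Hk2 difference was -0.25, and its unadjusted p was no longer below 0.05. The same loss came from leaving out WT mouse 2, WT mouse 4, AKO mouse 3 or AKO mouse 9 alone. Hk1 averaged 21.4 ± 2.64 and 27.4 ± 4.53 TPM, a log2 difference of 0.33 (SE 0.13, limma FDR = 0.831), or 0.23 without AKO mouse 11. With the covariate the Hk1 difference was 0.30, and its unadjusted p was not below 0.05 either. Hk1 was the only member of the 32, or 3.12%, whose groups did not overlap, against 2.44% of all genes tested. Hk3 averaged 30.9 ± 21.3 and 49.8 ± 15.7 TPM, a log2 difference of 0.93 (SE 0.54, limma FDR = 0.831). That was the largest difference among the tested members, with the largest error, and it was 0.38 without WT mouse 4. Eno2 followed at 0.69 (SE 0.34, limma FDR = 0.831), or 0.40 without WT mouse 4.

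**Figure D3:**
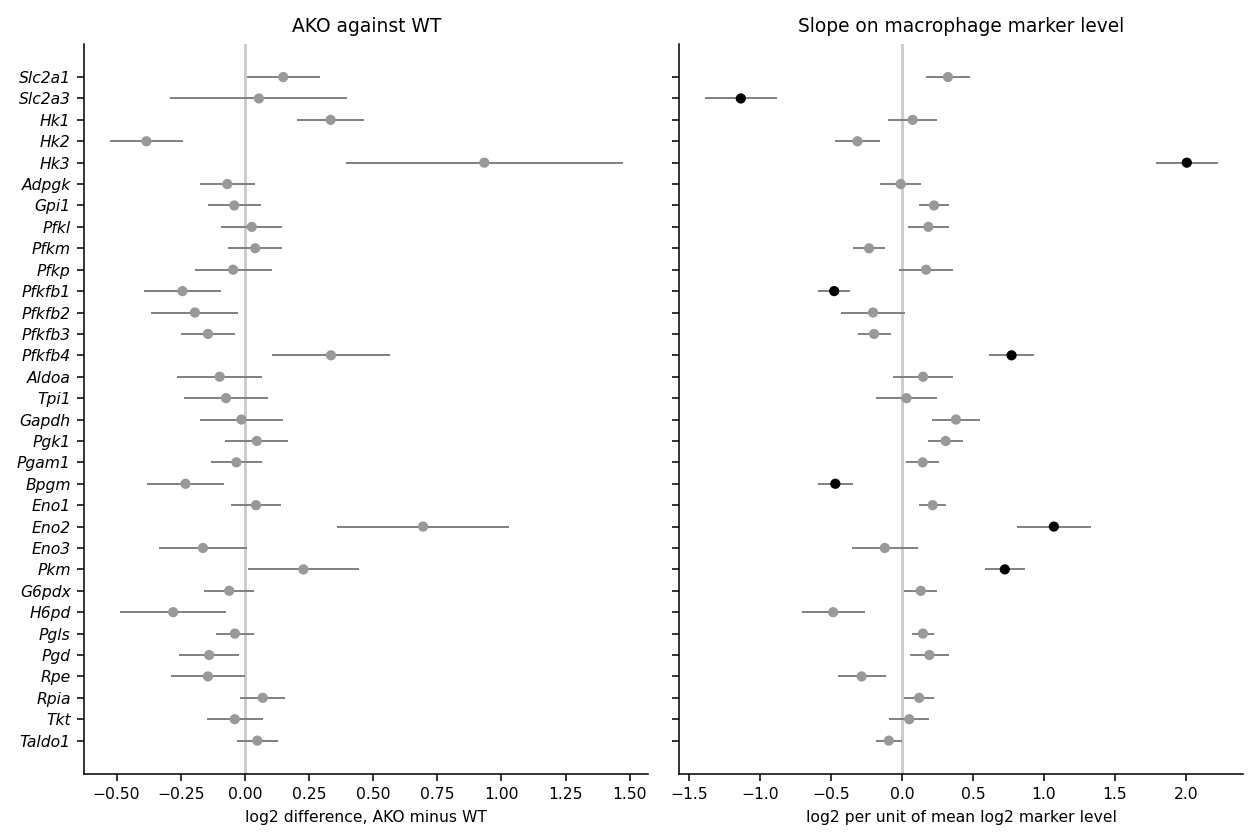
Fitted values for the 32 tested members, points with SE bars: on the left the log2 difference AKO minus WT, on the right the slope on the macrophage marker level with genotype in the model. Black points passed an FDR of 0.05 over all genes, which 0 members did on the left and 7 on the right.

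The files list 301 rows for the 36 identifiers, each row 1 transcript without a name, numbered here in file order under a gene. Genes had 1 to 26 rows, and 167 rows reached 1 TPM in a mouse. Of 109 member rows tested, 0 passed an FDR of 0.05, against 0.021% of the 33323 rows tested. The smallest FDR was 0.803. An unadjusted p below 0.05 was found for 5 rows, 4.59% of those tested against 5.56% of all rows, and 4 rows had groups that did not overlap, 3.67% against 3.05%.

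Pfkfb3 had the most rows, and 3 of the 4 rows without overlap. Its row 24 had 9.29, 8.06, 8.66 and 9.29 TPM in WT mice 2 to 5 and 11.4, 11.9, 12.6 and 18.7 in AKO mice 3, 8, 9 and 11, a log2 difference of 0.55 (limma FDR = 0.803). Its row 3 had 10.7, 10.5, 24.3 and 11.98 in WT and 9.27, 10.5, 7.65 and 6.10 in AKO, a log2 difference of -0.65 (limma FDR = 0.838). Every AKO mouse was above every WT mouse for row 24 and below for row 3, with WT mouse 4 standing highest in row 3. Both are small parts of the gene, whose largest row held 30.5% of its TPM. The row without overlap outside Pfkfb3 was row 3 of Adpgk, with 0.69 to 1.11 TPM in WT and 1.14 to 1.85 in AKO. Its unadjusted p was not below 0.05. Row 6 of Gpi1 had 8.13, 4.91, 13.6 and 6.54 TPM in WT. It had 5.89 and 1.73 in AKO mice 3 and 8, and was listed at 0 in AKO mice 9 and 11 (log2 difference -2.07, limma FDR = 0.815). The groups of this Gpi1 row overlapped, through WT mouse 3 and AKO mouse 3. A listed 0 can be a failed estimate. The remaining rows with an unadjusted p below 0.05 were row 2 of Hk2 (log2 difference -0.67) and row 3 of G6pdx (0.69).

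The rows of Hk1 differed between AKO mouse 11 and the other AKO mice. Row 2, which held 73.0% of Hk1, had 17.7 ± 3.06 TPM in WT mice and 17.9 ± 3.98 in AKO mice, a log2 difference of 0.01. Without AKO mouse 11 its AKO mean was 19.9 TPM, which was 2.27 TPM above the WT mean. The same difference was 0.84 TPM for row 1, 0.78 for row 21 and 3.69 for the gene total, which also sums rows under 1 TPM. Row 21, chosen after its values were seen, was listed at 0 in WT mouse 2 and had 3.89, 0.27 and 0.83 TPM in WT mice 3, 4 and 5. It had 3.20, 0.89 and 1.98 in AKO mice 3, 8 and 9 and 16.7 in AKO mouse 11. In AKO mouse 11 this row thus stood above row 2, which was at 12 TPM. For Pkm, row 1 held 74.1% of the gene, with 250 ± 81.4 TPM in WT and 295 ± 59.2 in AKO, and row 2 had 84.8 ± 20.4 and 90.2 ± 14.0. Which row stands for the muscle or the ubiquitous form of pyruvate kinase was not given.

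Since the pad holds macrophages as well as fat cells, the members were also followed along the level of macrophage transcripts. The marker level of a mouse is the mean log2(TPM + 1) of 12 macrophage markers. It was 6.94, 7.46, 6.21 and 6.93 in WT mice 2 to 5 and 7.41, 7.22, 7.72 and 6.93 in AKO mice 3, 8, 9 and 11. WT mouse 4 stood lowest by a wide margin, and the groups overlapped. A slope is the change in log2(TPM + 1) of a gene per unit of this level, with genotype in the limma fit. The marker level comes from the same libraries as the members.

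Of the 32 members, 7 had a slope with an FDR below 0.05, or 21.9%, against 13.8% of all genes tested. Slopes were positive for 4 members (12.5%, with 10.6% of all genes) and negative for 3 (9.38%, with 3.19%). Hk3 had the steepest, at 2.01 (SE 0.22, FDR = 0.00101). Eno2 followed at 1.07 (FDR = 0.0333), then Pfkfb4 at 0.77 (FDR = 0.0177) and Pkm at 0.72 (FDR = 0.0142). These were higher in mice with more macrophage transcripts. Slc2a3 had a slope of -1.13 (FDR = 0.0247), Pfkfb1 of -0.48 (FDR = 0.0285) and Bpgm of -0.47 (FDR = 0.0404). For Hk2 the slope was -0.31 and did not pass (FDR = 0.221).

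The slopes rested in part on single mice. Without WT mouse 4, 3 members passed (Hk3, Slc2a3 and Bpgm), with 5.01% of all genes. Without WT mouse 3, Hk3 alone passed, with 3.23% of all genes. The count was 4 without AKO mouse 9 (7.13% of all genes) and 3 without AKO mouse 11 (10.2%). Hk3 passed whichever single mouse was left out, with slopes of 1.50 to 2.20 and FDRs of 0.00145 to 0.0189. Without the 2 mice farthest from the median level, WT mouse 4 and AKO mouse 9, 0 members and 0 of 14172 genes passed, while 2339 genes, 4 members among them, had an unadjusted p below 0.05. The Hk3 slope was then 1.72 (FDR = 0.0826).

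**Figure D4:**
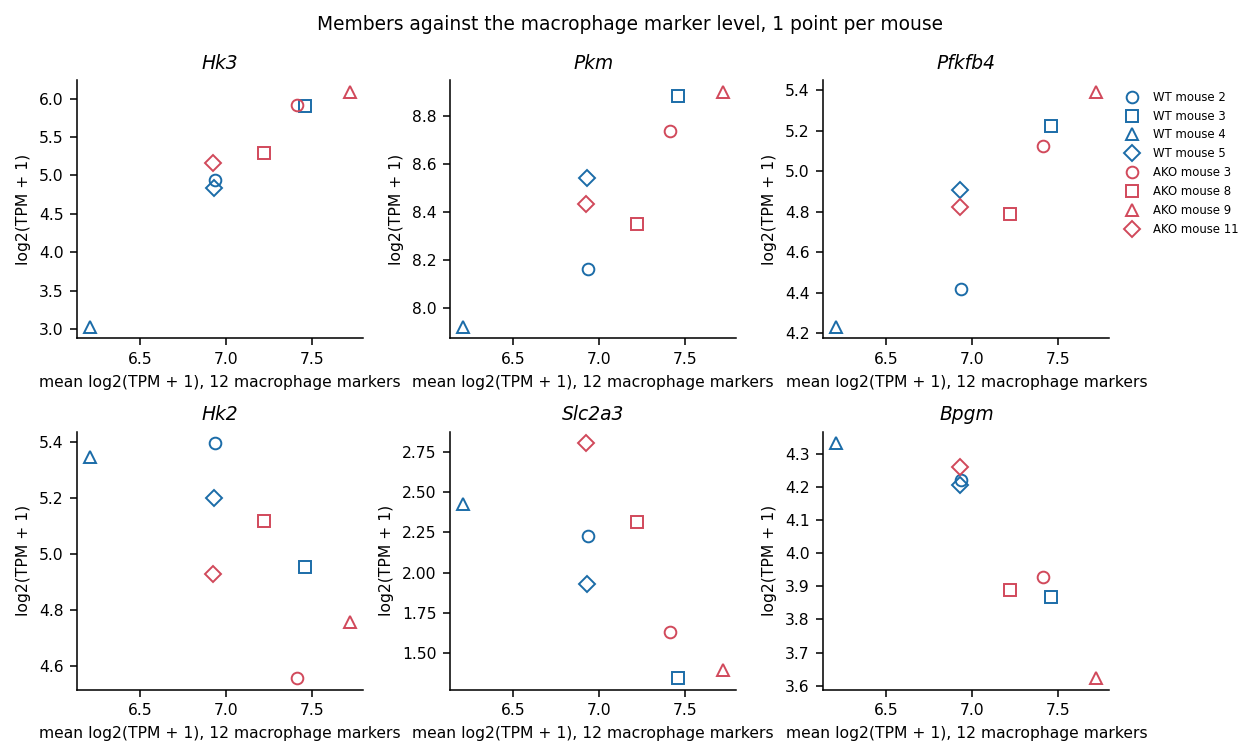
Level of 6 members, as log2(TPM + 1), against the mean log2(TPM + 1) of 12 macrophage markers, 1 point per mouse, blue for WT and red for AKO. Hk3 climbs with the marker level from WT mouse 4 at the lower left to AKO mouse 9 at the upper right, while Slc2a3 and Bpgm have their 2 lowest values in WT mouse 3 and AKO mouse 9.

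Several other cell marker lists moved with the same mice. The 6 fibroblast and progenitor markers had their lowest sum in WT mouse 4 (1272 TPM), though only 3 of the 6 genes were lowest there. Their sums were 2283 in WT mouse 3, 2382 in AKO mouse 3 and 2196 in AKO mouse 9. The 5 endothelial markers had their lowest sums in WT mouse 3 (273 TPM) and AKO mouse 9 (317). The summed adipocyte markers were highest in WT mouse 4 (21100 TPM) and lowest in AKO mouse 9 (10938). With the adipocyte marker level in place of the macrophage level, 6 members passed, 18.8% against 18.4% of all genes, 2 with positive and 4 with negative slopes. Hk2 was among the positive ones and Hk3 among the negative ones. The 5 red blood cell markers (globins and Alas2) summed to 2847 to 10593 TPM in WT and 2396 to 8300 in AKO, and 0 of 5 had a higher mean in AKO. WT mouse 3 and AKO mouse 9 had the lowest sums, as they did for Slc2a3. The 6 neutrophil markers summed to 16.6 to 58.3 TPM in WT and 28.6 to 67.6 in AKO, and 3 of 6 had a higher mean in AKO. Most of the sum was S100a8, with 13.25 to 65.41 TPM over the mice, and Ly6g was listed at 0 in every mouse. The part of each cell type in the slopes was not tested.

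AKO mouse 11 differed from the other mice in forms of these enzymes that sperm cells use. Gapdhs, the sperm form of Gapdh, had 37.3 TPM there and at most 1.66 in the other 7 mice. Pgk2, the testis form of Pgk1, had 13.8 against at most 0.51. Among the members, Pgam2 had 25.7 TPM in AKO mouse 11, and 1.20, 0.77, 0.72 and 0.90 in WT mice 2 to 5 and 0.97, 2.24 and 0.38 in AKO mice 3, 8 and 9. Pgam2 was the only 1 of 36 identifiers with at least 1 TPM and at least 5 times the level of every other mouse in this library, which held for 1.07% of all genes. Among rows this held for 4 of 301, or 1.33%, against 0.62% of all rows: the row of Pgam2, row 10 of Eno1 (5.81 TPM), row 16 of Hk1 (1.67) and row 7 of Pkm (1.99).

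The germ cell list was high in the same library, but it was made after seeing the data. Its counts therefore describe this library and are no separate support. Of its 15 genes, 14 were highest in AKO mouse 11, Sycp3 being the exception with 29.0 to 84.2 TPM across the mice. The protamine gene Prm1 had 415 TPM there and at most 16.3 elsewhere, and the lactate dehydrogenase gene of sperm, Ldhc, 42.5 and at most 2.18. Pgk2 belongs to this list as well as to the paralogs. The skeletal muscle markers summed to 29.8 TPM in this mouse and to 13.3 to 68.0 in the others, with Ckm at 0.07 or less in every mouse. The 5 epididymis markers summed to 9.52 TPM in AKO mouse 11 and 0.23 to 7.87 in the others. Of these 5, 3 were highest in AKO mouse 11: Cst8 with 7.85 TPM against at most 0.64, and Defb21 and Rnase10 with only 0.62 and 0.54. The other markers went the other way. Crisp1 had 7.57 TPM in WT mouse 4 and 0.51 in AKO mouse 11, and Lcn5 3.98 in WT mouse 3 and 0 in AKO mouse 11. The source of the high forms in this library was not tested. The main enzymes did not stand apart in AKO mouse 11: Gapdh had 1442 TPM and Pgk1 171, both within the range of the other mice. Leaving this mouse out moved the Hk1 difference as given above, and Pgam2 and Fbp1 were below the level needed for a test.

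**Figure D5:**
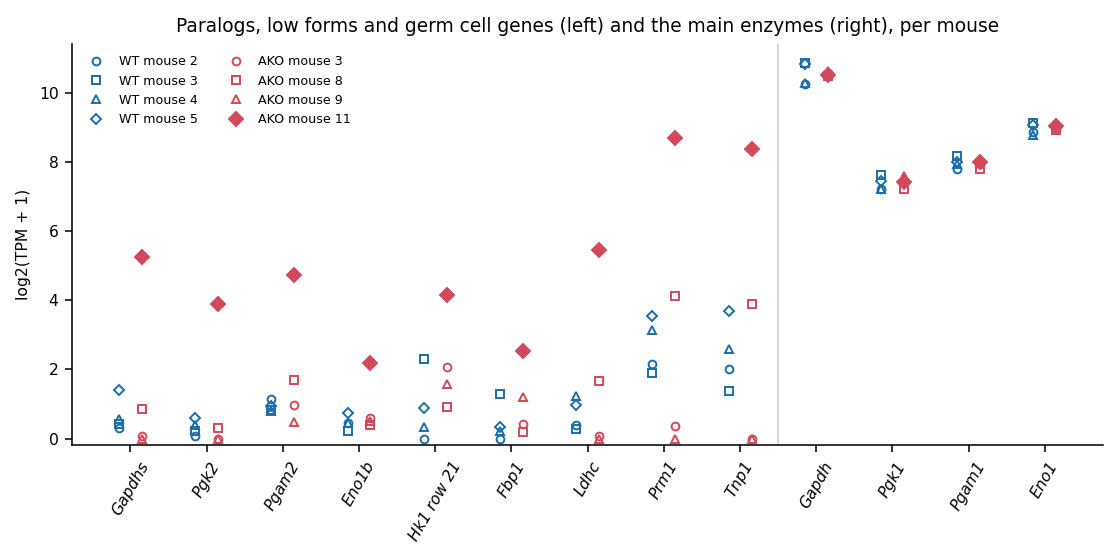
Level, as log2(TPM + 1), of paralogs, low forms and germ cell genes on the left and of 4 main enzymes on the right, per mouse, with AKO mouse 11 as filled red diamonds. Left of the grey line AKO mouse 11 lies above every other mouse, and right of it within their range.

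Genes next to these pathways were compared by genotype in 4 further lists, and 0 of 80 tested genes passed the FDR (0.0282% of all genes). Of 20 genes of glucose entry and glycogen, 4 had positive and 16 negative log2 differences, with a median of -0.12. The counts were 8 and 15 for 23 genes of side branches, 8 and 13 for 21 genes of pyruvate use, and 6 and 10 for 16 regulators. Positive differences were thus 32.5% of the 80, against 53.8% of all genes. An unadjusted p below 0.05 was found for 5 of the 80, or 6.25%, near the 4.75% of all genes. Ugp2, which makes UDP-glucose for glycogen, had 68.1, 69.5, 73.8 and 71.1 TPM in WT mice 2 to 5 and 64.2, 61.4, 67.5 and 59.2 in AKO mice 3, 8, 9 and 11 (log2 difference -0.16, limma FDR = 0.831). Psat1, an enzyme of serine synthesis from 3-phosphoglycerate, had 129 ± 5.86 TPM in WT mice and 108 ± 8.37 in AKO mice, and Gnpnat1, of the hexosamine branch, 13.7 ± 2.65 and 10.2 ± 1.02. The Gnpnat1 log2 difference was -0.38, but -0.07 when the row with the highest mean stood for the gene. The glucose-sensing factor gene Mlxipl had 25.7 ± 1.67 TPM in WT mice and 19.1 ± 2.85 in AKO mice (log2 difference -0.42, limma FDR = 0.831). For Ugp2, Psat1, Gnpnat1 and Mlxipl every AKO mouse was below every WT mouse, which held in either direction for 2.44% of all genes. Pdhx, a subunit of pyruvate dehydrogenase, had 27.6 ± 2.58 and 23.3 ± 2.85 TPM, with overlap.

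Along the macrophage level 16 of the 80 genes had a slope past the FDR, with 13.8% of all genes, and glycogen genes had mostly negative ones. Over all genes, 10.6% passed with a positive slope and 3.19% with a negative one. In the list of glucose entry and glycogen, 6 genes had a negative slope past the FDR. They included Slc2a4 (-1.04), which is also in the adipocyte marker list, and the glycogen phosphorylase genes Pygb (-0.93) and Pygl (-0.77). The others were the glycogen synthase gene Gys1 (-0.47), Pgm1 (-0.43) and Phkb (-0.33). The glycogenin gene Gyg (0.62) and Pgm2 (0.46) had positive slopes. Among side branches the serine synthesis gene Phgdh (-1.06), Gpd2 (-0.54) and Uap1 (-0.43) were negative and Dera (0.60) was positive. Of pyruvate genes Ldhb (-0.85) and Gpt2 (-0.78) were negative, and of regulators Myc (0.93) and Usf2 (0.37) were positive. Without WT mouse 4 and AKO mouse 9, 0 of them passed, but neither did any of the 14172 genes tested.

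Some members have near-identical copies elsewhere in the genome, to which reads could have been assigned. Of 10 such copies in the files, 6 were at 0 in every mouse and 3 reached 1 TPM. Pgam1-ps2 had 12.7 to 33.1 TPM, beside 219 to 285 for Pgam1, so Pgam1 is uncertain to about that extent. Eno1b had 3.57 TPM in AKO mouse 11 and at most 0.67 elsewhere, and Gapdh-ps15 at most 1.28.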

How the data were processed

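RNA sequencing of epididymal fat from 4 WT and 4 AKO mice was analysed. Frozen fat gave the RNA by Trizol extraction, and sequencing libraries followed the TruSeq RNA protocol of Illumina, per the labels' protocols. The authors deposited 1 table of TPM per mouse, in steps of 0.01 and with 1 row per transcript. The submitters' processing notes list HISAT2, DESeq2 and mm9 and give neither role nor version. No quantifier or annotation is named there, so how reads shared by isozymes or copies were split cannot be checked.

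Names came from GENCODE M21 tables (55141 of 55487 identifiers matched), and no coordinates were taken for the files. The rows of a gene were summed. Another 401 rows without a gene (0.605% to 0.943% of TPM) were left out. With a pseudocount of 1, limma 3.58.1 (R 4.3.3, mean-variance trend) was fitted to genes at 1 TPM or more in 4 or more mice, with Benjamini-Hochberg adjustment. This log scale understates changes of low genes. Single rows were fitted likewise. The slope fit added the macrophage marker level, from which Ptprc was left out. Both fits were tested on simulated data of 14172 genes, with normal noise drawn independently for each gene. The genotype fit recovered 73% of log2 differences of 1 and 95% of those of 2, with 9 false calls. The slope fit recovered 48.5% of slopes of 1, with 5 false calls, so real slopes can be missed. No smaller differences or slopes were simulated, and real genes do not vary independently. These rates can therefore overstate recovery in the real data. Members and lists were chosen with earlier results of these data known. Named genes were the leading isozyme of each family, members with an unadjusted p below 0.05, without group overlap, with a slope FDR below 0.05 or near 0, and likewise for the other lists. Alternatives were another pseudocount, no filter, leaving out each mouse, median-ratio scaling, removal of mitochondrial genome genes, quality weights, the highest row per gene and the macrophage level as a covariate. Leaving out WT mouse 4 and AKO mouse 11 together was chosen after seeing the data. Promoter windows came from RefSeq. Some genes of the lists are not reported here and were left out of the sums, shares and counts.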

Additional observations from a re-analysis of the deposited data

Results flagged for a closer look

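In 78 groups of 4 mice with a value of at least 1 TPM, the highest or lowest mouse was set against the others, and 7 stood apart by Dixon's criterion at 95%. Chance alone sets about 1 in 20 groups apart. AKO mouse 11 gave 4 of the 7. Hk1 had 34.1 TPM there and 24.4 to 25.5 in the other AKO mice. Pgam2 had 25.7 against 0.38 to 2.24, Pgk2 13.8 against 0 to 0.23, and Gapdhs 37.3 against 0 to 0.82. WT mouse 3 gave 2. Rpia had 18.4 TPM there and 16.7 to 16.9 in the other WT mice, and Pklr, the liver pyruvate kinase gene, had 1.79 against 0 to 0.08. Pklr was also apart in AKO mouse 9, with 2.37 TPM against 0 to 0.02 in the other AKO mice.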

How the results depend on the processing

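In all 16 alternatives 0 members passed the FDR for genotype, and in all 14 run on rows 0 member rows did. The count over all genes, 4, was 1 to 5 when single mice were left out and 0 (646 at an unadjusted p below 0.05) without WT mouse 4 and AKO mouse 11. The count over all rows, 7, was 2 with a pseudocount of 0.1, 0 without a filter (4045 at an unadjusted p below 0.05), 4 with quality weights, 0 to 2 without single mice, and 0 without both mice (1809 at an unadjusted p below 0.05). The count of member slopes, 7, was 3 without the lowest mouse, 0 without the 2 farthest mice and 1 to 9 without single mice. The count of isozyme shares without overlap, 0, was 0 to 3, with 3 without WT mouse 3. Fits without mice had fewer animals and the fit without a filter had more rows, but the pseudocount and the weights changed neither. The cause of these shifts was not tested. The 7 member slopes kept their sign in the 11 alternatives fitted for them on the macrophage level, but lost the FDR call in 1 (Hk3) to 7 (Bpgm) of these. The alternatives without the lowest mouse and without WT mouse 4 are the same fit, and both are counted. The Hk1 difference was 0.01 with the highest row per gene and 0.16 without both mice. With the macrophage level as a covariate, Gnpnat1 was at -0.25, Pdhx at -0.15 and Psat1 at -0.18, against -0.38, -0.24 and -0.25. Mlxipl and Ugp2 did not shrink, at -0.48 and -0.17 against -0.42 and -0.16. No paired analysis was possible because the groups share only the number 3, on different animals. Depth is unknown, so values near 0 cannot be given a counting limit.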

Other observations

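Paralogs of these enzymes that other tissues use were mostly near 0. Hkdc1 reached 0.36 TPM at most, the brain and testis gene Eno4 0.59, and the retroposed dehydrogenase gene G6pd2 0.35. Tktl1 was listed at 0 in every mouse, and Tktl2 had 0.26 TPM in AKO mouse 11 and 0 elsewhere. Slc2a2, the glucose transporter GLUT2 of liver, lay between 0.46 and 1.61 TPM. Fbp2, the bisphosphatase of muscle, was the 1 gene of this list with enough signal for a test, at 1.23 to 5.43 TPM (log2 difference 0.33, limma FDR = 0.850). It exceeded Fbp1 in every mouse except AKO mouse 11, where Fbp1 had 4.83 TPM and Fbp2 4.04.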
